A study of Ficus obtusifolia with 4 samples.

Results

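Gall flowers and seed flowers of the fig *Ficus obtusifolia* were compared while the syconium, the closed inflorescence of a fig, was receptive and before any wasp had entered it. The comparison rested on 1 library of receptive gall flowers and 1 library of receptive seed flowers. Transcripts were kept when they had a protein hit, were at least 500 bp long and exceeded 20 RPKM (reads per transcript, corrected for its length and for library depth) in at least 1 of these 2 libraries. These rules kept 6798 of the 54550 assembled transcripts, after 29326 with a protein hit and 21299 with a hit and that length. Of the 6798 transcripts, 4313 exceeded 20 RPKM in both libraries, 1439 in gall flowers only and 1046 in seed flowers only, and the last 2 classes could enter only because their level differed.

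The study covered 4 libraries of flowers from the same wild tree, 1 each of receptive gall, receptive seed, pollinated gall and pollinated seed flowers. Receptive syconia had been bagged against wasps and were taken before a foundress was let in, and pollinated syconia were taken a day after a single *Pegoscapus hoffmeyerii* foundress was introduced to each. Flowers were called gall or seed by their place alone, gall flowers nearest the lumen and seed flowers nearest the wall, and each library pooled many flowers from several syconia of this 1 tree. No library was replicated, so no test within the receptive pair was possible: a difference is given as a ratio of RPKM, with an exact 95% binomial interval that covers counting error only and not the variation between syconia or trees.

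In monoecious figs, wasps lay their eggs through the style into the ovary of the flowers near the lumen, and a flower that receives an egg becomes a gall in place of a seed. A flower at this stage is built of epidermis with its waxy cuticle, growing cell walls, a stigma and style exposed to the lumen, and an ovary holding an ovule. Cuticle lipids seal the surface, pectins and xyloglucans set how walls yield, terpenes and fatty acid derived oxylipins serve as scents and defence signals, and dividing cells need histones and ribosomes.

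More transcripts were past 2-fold toward gall flowers than toward seed flowers, and the gall-high side held the larger ratios. At a ratio of 2 or more, 1256 transcripts (18.5% of the 6798) were higher in gall flowers and 966 (14.2%) were higher in seed flowers. This order turned where both libraries exceeded 20 RPKM, with 378 gall-high and 487 seed-high among those 4313. Past 4-fold there were 444 against 67, and past 8-fold 154 against 5. On the log2 scale, where a positive value means higher in gall flowers, the median over all transcripts was -0.03, with quartiles at -0.66 and 0.72. The 10 transcripts with the largest ratios toward gall flowers stood below 10 RPKM in seed flowers in 9 cases, whereas histones and ribosomal proteins lay close to the 2-fold line on the seed side, as the plot of levels in both libraries shows.

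**Figure D1:**
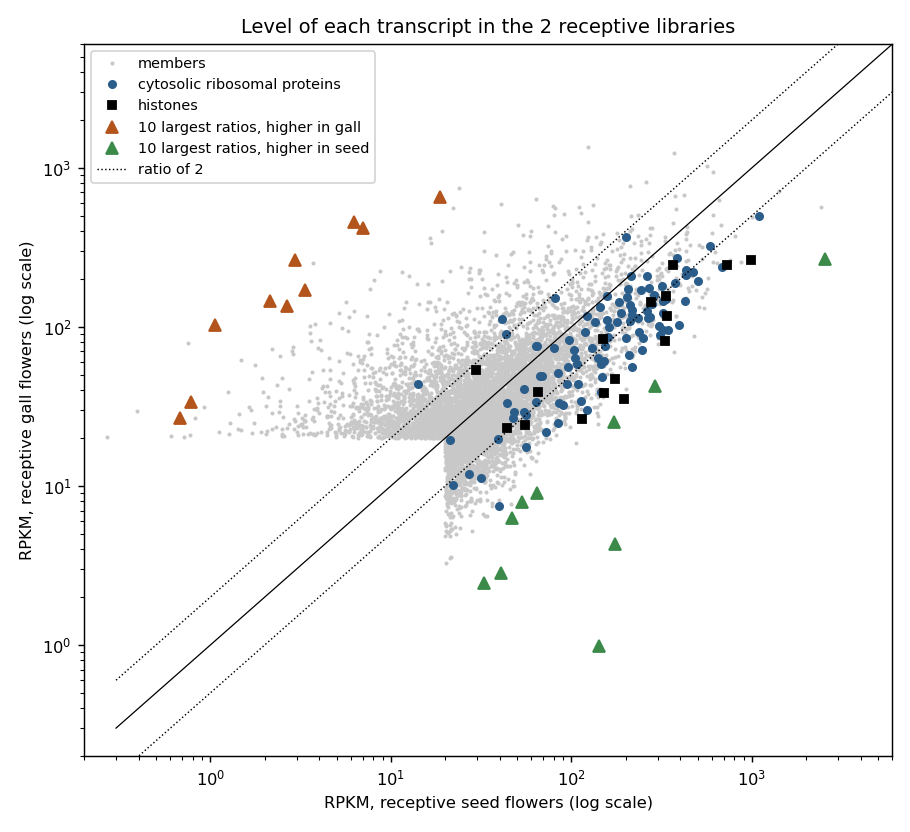
Level of each transcript in receptive seed flowers (horizontal axis, RPKM, log scale) and receptive gall flowers (vertical axis, RPKM, log scale), 1 point a transcript. Lines mark equal levels and ratios of 2. Triangles mark the 10 largest ratios in each direction outside flavonoid and carbohydrate genes, blue circles the 97 cytosolic ribosomal proteins and black squares the 16 histones. The empty corner at the lower left follows from the rule of 20 RPKM in at least 1 library, and 1 transcript with 0 reads in seed flowers is not drawn.

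The seed-flower library was the shallower, with 11584069 mapped reads against 51063005 in gall flowers. A median of 772 reads per transcript in seed flowers and 3717 in gall flowers left 1114 of the 1256 gall-high and 763 of the 966 seed-high transcripts with a counting interval wholly beyond 2-fold. RPKM sums differed, 1193084 in seed against 991149 in gall flowers. Scaling by the trimmed mean of M-values (TMM) or to equal RPKM sums moved every log2 ratio up by 0.28 or 0.27, and TMM gave 24.9% gall-high and 7.94% seed-high transcripts, so that gall-high transcripts made up 75.8% of those past 2-fold in place of 56.5%. A log2 value between -0.28 and 0 accordingly has no fixed direction, and a seed-high transcript under 2.43-fold is not seed-high under TMM. Of the 226 transcripts past 2-fold that the naming rule picked, 182 stayed past it under TMM, and the 44 that did not were all seed-high. Where a pair of RPKM values is given, the value in gall flowers comes first.

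The ratio also followed transcript length. The median log2 ratio was -0.53 for the 879 transcripts of 500 to under 1000 bp, -0.29 for the 2658 of 1000 to under 2000 bp and 0.23 for the 3261 of 2000 bp or more. Among the shortest, 32.9% were seed-high, against 5.61% of the longest, while gall-high shares were 18.5% and 20.7%. Between the pollinated libraries the 3 medians were -0.15, -0.14 and -0.09, a much narrower spread. The part of length in any single difference was not tested, and medians of the groups are therefore also given, in the text or in the plot of functional lists, after subtracting the running median over length. That subtraction left 1286 gall-high and 667 seed-high transcripts.

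**Figure D2:**
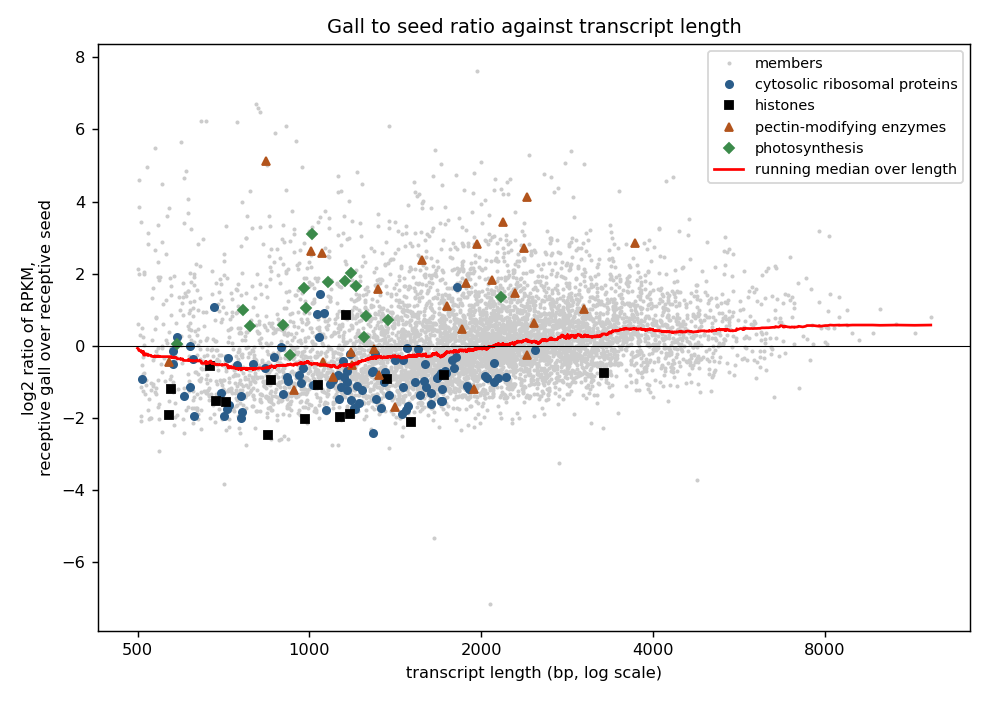
Log2 ratio of RPKM, receptive gall over receptive seed flowers (vertical axis), against transcript length (horizontal axis, bp, log scale), 1 point a transcript. The red line is the running median over transcripts ordered by length. Ribosomal proteins and histones lie below the line at most lengths and photosynthesis transcripts above it.

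**Figure D3:**
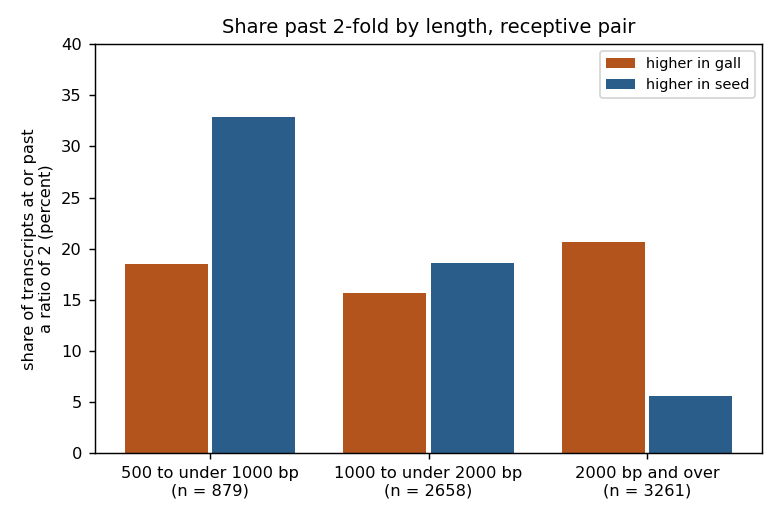
Share of transcripts at or past a ratio of 2 (vertical axis, percent) in 3 classes of length (horizontal axis), higher in receptive gall (orange) or receptive seed flowers (blue). The seed-high share falls from 32.9% to 5.61% with length, while the gall-high share stays between 15.7% and 20.7%.

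At the edge of the selection, Locus 2287 (transport inhibitor response 1, an auxin receptor) was the last one inside, barely above 20 RPKM in gall flowers and at 14.70 in seed flowers, and Locus 10858 (rna exonuclease 4-like) the first one outside, barely below 20 RPKM in gall flowers and at 12.54 in seed flowers. On the seed side Locus 29374 (dna binding) was the last one inside, at 4.81 RPKM in gall flowers, and Locus 32534 (protein kinase) the first one outside, at 19.74. The only transcript of exactly 500 bp, Locus 13503 (cysteine protease 1 precursor), had 415.92 and 273.48 RPKM. The longest transcript left out, Locus 104 (aspartate aminotransferase, 497 bp), had 510.28 and 44.81. Flavonoid genes (32 transcripts) and carbohydrate genes (87 transcripts) are not described further.

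Transcripts of cuticle and lipid synthesis were more often gall-high than seed-high. Of the 51 transcripts in the fatty acid, wax and cuticle list, 18 were gall-high and 6 seed-high, with a median log2 ratio of 0.62 (0.70 with length removed) beside -0.03 for all transcripts. The most abundant gall-high members were a lipid transfer protein precursor, of a family that carries lipids in the cell wall (Locus 38415), at 769.6 RPKM in gall and 210.4 in seed flowers (3.66-fold, 95% interval 3.49 to 3.84), and a pair of GDSL esterase lipases, of a family that includes cutin-forming enzymes. These stood at 389.6 RPKM in gall and 178 in seed flowers for Locus 18578 and 301 RPKM in gall and 116 in seed flowers for Locus 23128, 2.19-fold and 2.60-fold. The list was not uniform: another lipid transfer protein, Locus 13565, was 164 against 548 RPKM, 3.34-fold higher in seed flowers. Locus 20983, a 1-acyl-sn-glycerol-3-phosphate acyltransferase of membrane lipid synthesis, was 88.8 against 218, and Locus 21393, an omega-6 fatty acid desaturase, was 42.4 against 102, both also seed-high. Among the 33 members above 20 RPKM in both libraries, 7 were gall-high and 4 seed-high, with a median of 0.31. In pooled flowers, fewer cells of a type, such as epidermis, and less RNA per cell cannot be told apart.

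The largest ratio toward gall flowers, among transcripts outside flavonoid and carbohydrate genes with at least 10 reads in each library, belonged to a cuticle enzyme. Locus 9392, described as long chain acyl- synthetase 1, which in *Arabidopsis* activates very long fatty acids for wax and cutin, was at 103 RPKM in gall flowers and 1.06 in seed flowers, where it rested on 10 reads (96.9-fold, 95% interval 52.7 to 202). Cuticle and epidermis words were then searched, and both the words and the transcripts named from them were chosen after these values were seen. Of 25 transcripts so found, 13 were gall-high and 0 seed-high, and 7 exceeded 20-fold. These counts rest on how the transcripts entered: 10 of the 13, all 7 past 20-fold among them, were above 20 RPKM in gall flowers only. Of the 14 above 20 RPKM in both libraries, 3 were gall-high and 0 seed-high, with a median log2 ratio of 0.55 in place of 1.25. The 7 were Locus 9392, a second long chain acyl- synthetase 1 (Locus 30482, 74.5 against 2.85 RPKM), a wax2-like protein of wax synthesis (Locus 795, 105 against 3.77), the alkane-forming wax enzyme cer1 (Locus 4091, 123 against 5.17), abc transporter g family member 32, which exports cutin precursors in *Arabidopsis* (Locus 648, 143 against 5.61), a dcr-like BAHD acyltransferase of cutin synthesis (Locus 3988, 126 against 6.23) and a glabra 2-like homeobox factor, of a family active in the epidermis (Locus 812, 47.3 against 1.92).

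Transcripts with the same or similar descriptions did not all behave this way. A second dcr-like transcript (Locus 14026) had 306 against 179.6 RPKM and a second wax2-like transcript (Locus 7683) 39.3 against 20.7, both under 2-fold. Long chain acyl- synthetase 2-like (Locus 3972) was nearly level at 113 against 101, glycerol-3-phosphate acyltransferase 6 (Locus 15837) at 29.0 against 31.9, and 1 of the long chain acyl- synthetase 4-like transcripts (Locus 27949) was lower in gall flowers, 34.4 against 56.0. Of the 828 descriptions carried by at least 2 transcripts, 75 (9.06%) had members past 2-fold in both directions, and single loci here may be copies or fragments of 1 gene that the assembly kept apart. After pollination the 25 transcripts had a median log2 ratio of 0.39 against 1.25 in the receptive pair, with Locus 9392 at 28.3 RPKM in gall and 22.8 in seed flowers.

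**Figure D4:**
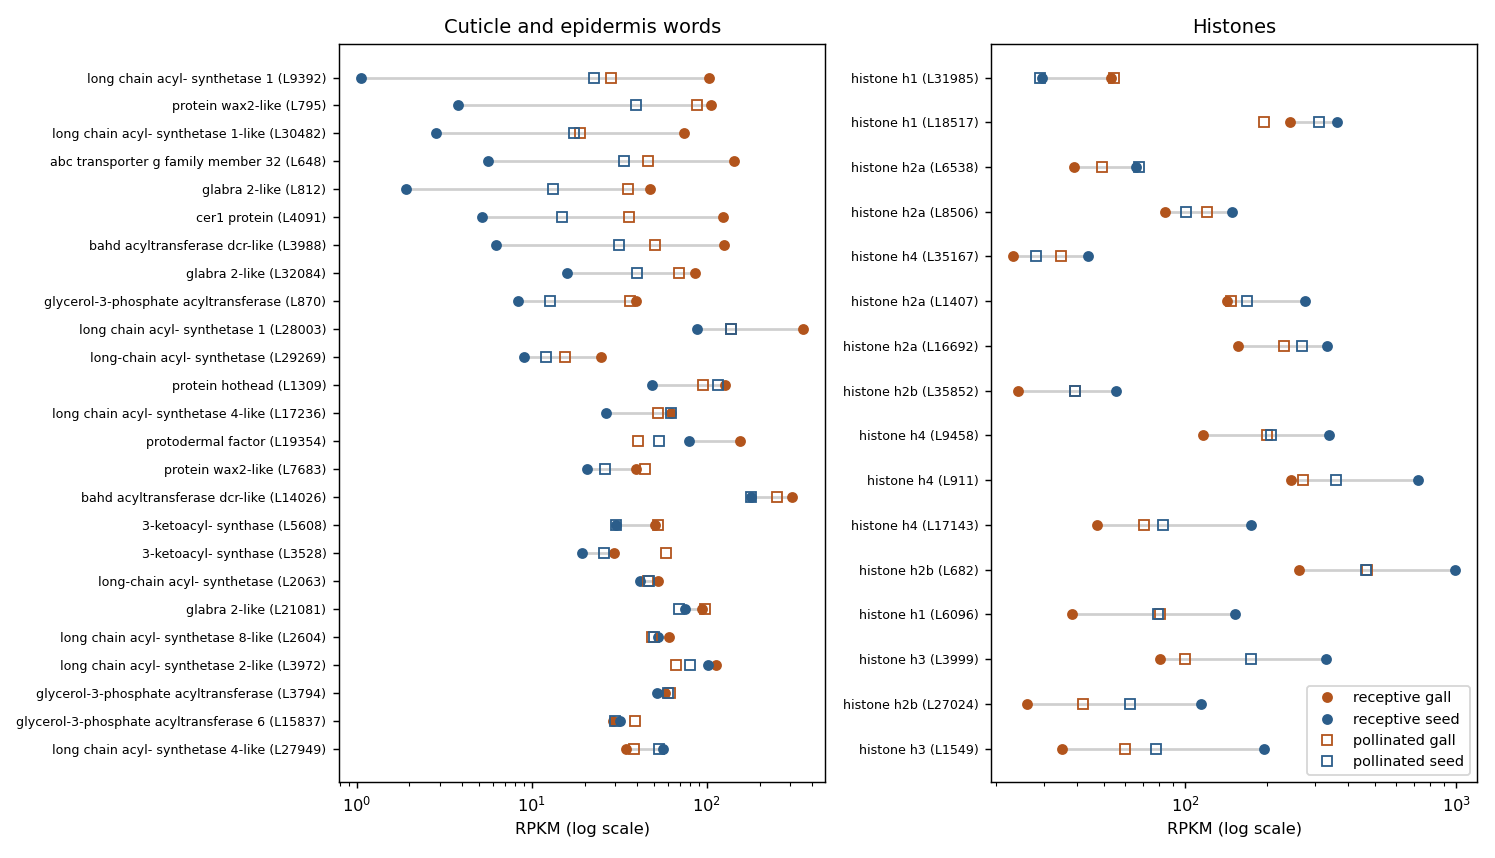
RPKM (horizontal axis, log scale) in the 4 libraries for the 25 transcripts found by cuticle and epidermis words (left) and the 16 histones (right), ordered by the receptive ratio, with L standing for Locus. Filled circles are receptive and open squares pollinated flowers, orange gall and blue seed, 1 library each, and grey lines join the receptive pair. On the left 7 transcripts are more than 20-fold higher in receptive gall flowers, and on the right 15 of 16 histones are higher in receptive seed flowers.

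The same held for enzymes that remodel the cell wall. Of 28 pectin-modifying enzymes, 15 were gall-high and 3 seed-high, with a median log2 ratio of 1.06 and a wide middle range from -0.45 to 2.59. Pectin methylesterase, which removes methyl groups from pectin, gave the highest level: Locus 171 was at 653 RPKM in gall and 18.6 in seed flowers (35.1-fold, 95% interval 30.4 to 40.9), and Locus 5276 at 287 RPKM in gall and 46.5 in seed flowers. Locus 371, a pectate lyase that cuts the pectin chain, was at 191 against 57.3 RPKM. A pectinesterase inhibitor (Locus 16283, 23.1 against 54.6 RPKM) and 2 pectinesterases (Locus 1943, 24.9 against 57.3, and Locus 1880, 7.17 against 23.3) were the seed-high members. The median of this list turned to -0.09 over the 15 members above 20 RPKM in both libraries, of which 6 were gall-high and 2 seed-high.

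Expansins, which loosen walls, and xyloglucan and cellulose enzymes were gall-high in 17 of 39 cases and seed-high in 2, with a median log2 ratio of 0.72, and 0.58 over the 26 above 20 RPKM in both libraries, of which 8 were gall-high and 1 seed-high. Alpha-expansin 1 (Locus 6850) was at 344 against 146 RPKM, and 2 xyloglucan endotransglycosylases, which cut and rejoin xyloglucan, at 229.7 against 106 (Locus 588) and 159.8 against 61.0 (Locus 200). The beta-expansin precursor Locus 1860 went the other way, 40.8 against 138, as did a cellulose synthase-like protein (Locus 8304, 12.4 against 32.4). Arabinogalactan and other structural wall proteins were split, 10 gall-high and 4 seed-high of 34, with a median of -0.12 that turned to 0.16 under TMM. An extensin-like protein, of a family that crosslinks into the wall (Locus 10755), had the second largest ratio toward gall flowers under the same limits, 262 RPKM in gall and 2.94 in seed flowers (89.1-fold, 95% interval 61.6 to 134). Hydroxyproline-rich glycoproteins were found on both sides, Locus 1895 at 223 against 27.2 and Locus 3743 at 31.7 against 70.4 RPKM, and 2 arabinogalactan proteins were seed-high, Locus 335 at 50.4 against 166 and Locus 28145 at 15.1 against 60.3.

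In the branch that makes lignin monomers, the transcripts past 2-fold were all gall-high, but other members were lower in gall flowers. Of 23 lignin and laccase transcripts, 9 were gall-high and 0 seed-high, with a median log2 ratio of 0.89, and 0.54 over the 16 above 20 RPKM in both libraries, of which 3 were gall-high. Cinnamoyl reductase (Locus 92), the first enzyme committed to monolignols, was at 95.6 RPKM in gall and 15.9 in seed flowers (6.02-fold, 95% interval 5.45 to 6.68). Cinnamyl alcohol dehydrogenase (Locus 9537), the last enzyme, was at 368 RPKM in gall and 137 in seed flowers, and caffeoyl- o-methyltransferase (Locus 9207), which methylates the ring, at 179 RPKM in gall and 59.3 in seed flowers. Under 2-fold and on the other side, with intervals below 1, were 2 more cinnamyl alcohol dehydrogenases, Locus 14639 at 98.2 against 152 and Locus 15423 at 62.7 against 114 RPKM, and the caffeoyl- o-methyltransferase Locus 9867 at 14.2 against 23.6, named after their values were seen. Peroxidases, some of which join such monomers, and other reactive oxygen enzymes were gall-high in 17 of 40 cases and seed-high in 4. Cationic peroxidase 1 (Locus 601) had 135 RPKM in gall and 2.64 in seed flowers (50.9-fold, 95% interval 35.4 to 76.0), whereas the peroxidase Locus 47688 was 64.8 against 216 and a chloroplast superoxide dismutase (Locus 21527) 24.9 against 53.0, both seed-high. The list median of 0.66 became -0.03 over the 20 members above 20 RPKM in both libraries, with 3 gall-high and 2 seed-high.

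Terpene and oxylipin genes held some of the most unequal transcripts. Of 20 transcripts in the terpenoid and carotenoid list, 7 were gall-high and 0 seed-high (median log2 ratio 0.71, and 0.34 over the 12 above 20 RPKM in both, with 2 gall-high and 0 seed-high). The words also matched hydroxymethylglutaryl- lyases, which are not enzymes of terpenoid synthesis. These were Locus 3445 (71.8 against 19.9 RPKM), counted among the 7, and Locus 2605 (19.7 against 29.6). Germacrene D synthase, which makes a volatile sesquiterpene, was described for Locus 16154, at 512 RPKM in gall and 90.6 in seed flowers (5.65-fold, 95% interval 5.29 to 6.05) and for Locus 20881, at 457 RPKM in gall and 6.23 in seed flowers (73.3-fold, 95% interval 56.1 to 97.6). After pollination the same 2 loci were close to level between flower types, 147 against 178 and 93.9 against 93.3 RPKM. A myrcene synthase-like transcript of monoterpene synthesis (Locus 5434) was at 106 RPKM in gall and 42.7 in seed flowers.

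In the jasmonate, salicylate and abscisic acid list, 6 of 20 were gall-high and 3 seed-high (9 and 0 under TMM). A lipoxygenase, which oxygenates fatty acids at the start of oxylipin synthesis (Locus 2519), was at 146 RPKM in gall and 2.13 in seed flowers (68.3-fold, 95% interval 48.8 to 98.7). For the following enzymes of jasmonate synthesis, allene oxide synthase (Locus 2922) was at 65.1 against 20.8 and allene oxide cyclase (Locus 1440) at 139.6 against 53.9 RPKM. Another allene oxide cyclase (Locus 797) was lower in gall flowers, 55.1 against 76.3. A linoleate 13s-lipoxygenase (Locus 4506) was nearly level at 159 against 155. Both were named after their values were seen. Jasmonate o-methyltransferase, which makes the volatile methyl ester (Locus 44024), was on the seed side at 62.5 against 132, as were the lipoxygenase Locus 4418 (16.4 against 33.8) and a salicylic acid-induced fragment (Locus 272, 30.9 against 63.4). The median over this list was 0.48, and -0.12 over the 10 members above 20 RPKM in both, with 2 gall-high and 2 seed-high.

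Ethylene transcripts past 2-fold were mostly gall-high, at a share near the background of 18.5%, while auxin transcripts had no fixed direction. Of 32 ethylene transcripts, 6 (18.8%) were gall-high and 1 seed-high, including 1-aminocyclopropane-1-carboxylate synthase, the usual limiting step of ethylene synthesis (Locus 4984, 53.6 against 18.3 RPKM), and the ethylene response factors Locus 9993 (179 against 27.8) and Locus 18586 (299.6 against 93.7). The seed-high one was an ap2 domain factor (Locus 5952, 13.2 against 37.1). Over the 20 ethylene transcripts above 20 RPKM in both libraries, 2 were gall-high and 0 seed-high. Auxin transcripts, 55 in all, were seed-high in 13 and gall-high in 6 cases under RPKM but 9 and 10 under TMM. Aux/IAA proteins, repressors of the auxin response, stood on both sides: Locus 2344 was at 208 against 463 and Locus 24660 at 161 against 336, and Locus 28963 at 383 against 149 and Locus 16020 at 152 against 55.7. An auxin-repressed protein (Locus 11254) was among the most abundant, 370.3 against 806. Of the 7 gibberellin, cytokinin and brassinosteroid transcripts, a gibberellin receptor (Locus 6658, 21.2 against 3.71) and a brassinosteroid receptor (Locus 2281, 57.4 against 25.6) were gall-high, and a gibberellin-regulated protein (Locus 9621) was seed-high at 134 against 510.2.

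Resistance genes past 2-fold were mostly gall-high, chiefly at low levels. Of 40 immune receptors, proteins that detect pathogen molecules inside the cell, 18 were gall-high and 2 seed-high (24 and 0 under TMM), with a median log2 ratio of 0.88. Most were weakly expressed, with a median of 25.3 RPKM in gall flowers, and 19 of the 40 exceeded 20 RPKM in gall flowers only. Over the 21 above 20 RPKM in both, 3 were gall-high and 2 seed-high, and the median was 0.06. The most abundant gall-high ones were Locus 16665 (nb-lrr type, 80.8 against 33.4), Locus 21620 (rgc2 type, 72.2 against 31.1) and Locus 3845 (nbs-containing, 56.4 against 24.3), and the seed-high ones Locus 7547 (28.7 against 68.2) and Locus 805 (20.1 against 43.5). The only transcript of the 6798 without a read in seed flowers, named after its values were seen, was a disease resistance protein (Locus 28697). It had 595 reads in gall flowers, a ratio of 45.0 when the 0 reads in seed flowers are set to the floor of 3.

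Secreted and vacuolar proteases were gall-high in 18 of 48 cases and seed-high in 2 (median log2 ratio 0.62, and 0.29 over the 33 above 20 RPKM in both, with 6 gall-high and 2 seed-high). They included the cysteine proteinases Locus 310 at 565 against 109.8 and Locus 7584 at 435 against 50.3 RPKM, and the aspartic proteinases Locus 18541 at 504 against 79.7 and, on the seed side, Locus 22474 at 172 against 563. Pathogenesis-related proteins were mixed, 10 gall-high and 6 seed-high of 32 (11 and 2 under TMM). Class I chitinase, which cuts fungal chitin (Locus 20250), was at 588 RPKM in gall and 40.7 in seed flowers (14.5-fold, 95% interval 12.7 to 16.5), while 2 thaumatin-like proteins, Locus 4017 at 183 against 400.2 and Locus 6659 at 32.3 against 109, and an osmotin-like protein (Locus 12103, 114 against 238) were higher in seed flowers. Among the 5 lectins, sugar-binding proteins, Locus 23805 was gall-high (167 against 66.2), Locus 1975 seed-high (104 against 267), and Locus 32001 (1022 against 565), Locus 24216 (64.6 against 90.1) and Locus 31977 (23.2 against 27.8) were within 2-fold.

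Receptor-like kinases were gall-high in 20 of 75 cases and seed-high in 7, with a median log2 ratio of 0.33. That lean rests on members that entered through the gall library: 30 of the 75 exceeded 20 RPKM in gall flowers only, and the 39 above it in both held 3 gall-high and 3 seed-high. A feronia receptor-like kinase, of a family that in *Arabidopsis* acts at the cell surface in growth and fertilization (Locus 146), was at 299 against 76.7 RPKM. A somatic embryogenesis receptor kinase, a co-receptor of several hormone and immune receptors (Locus 1099), was 2.41-fold higher in seed flowers at 72.4 against 174, and a wall-associated receptor kinase-like protein (Locus 14486) 3.32-fold higher at 59.1 against 196. Locus 14486 kept this difference after pollination, 36.6 against 177 RPKM, whereas Locus 1099 was at 127 against 113.

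Small-molecule enzymes and carriers were more often gall-high than seed-high. Transcripts named as cytochrome P450, a family that oxidizes many specialized metabolites, were gall-high in 13 of 31 cases and seed-high in 3. Their median log2 ratio was 0.78, and 0.20 over the 18 above 20 RPKM in both, with 4 gall-high and 2 seed-high. Locus 21395 was at 86.6 against 12.0 RPKM and Locus 2047, on the seed side, at 29.0 against 106. ABC transporters were gall-high in 13 of 26 cases and seed-high in 2 (median 0.87, and 0.36 over the 12 above 20 RPKM in both, with 3 gall-high and 0 seed-high). Under TMM the counts over all 26 were 13 and 0. Among the gall-high ones was the white-brown-complex member Locus 23691 (82.9 against 37.0). Of 168 other transporters, 51 were gall-high and 12 seed-high (median 0.35, and -0.01 over the 83 above 20 RPKM in both, with 9 gall-high and 5 seed-high), and the most abundant of the gall-high ones was sugar transport protein 5-like, of a family that takes up hexoses (Locus 2823), at 363 RPKM in gall and 16.6 in seed flowers (21.9-fold, 95% interval 19.6 to 24.5). Of 11 aquaporins, water channels, Locus 20967 was at 379.8 against 54.2, the x intrinsic protein Locus 46377 at 41.2 against 4.15 and aquaporin pip Locus 28709 at 75.1 against 226, so that members past 2-fold lay on both sides.

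Of 16 photosynthesis transcripts, 15 had a higher level in receptive gall flowers, and the differences past 2-fold were among the weaker ones. The list had a median of 35.9 RPKM in gall and 17.9 in seed flowers, with 8 gall-high and 0 seed-high and a median log2 ratio of 1.02 (1.42 with length removed). The highest-level gall-high members were a chlorophyll a-b binding protein of the light-harvesting antenna (Locus 41917, 52.8 against 25.7), another (Locus 9686, 39.2 against 15.4) and an oxygen-evolving enhancer protein of photosystem II (Locus 6449, 37.2 against 11.0). Of the 16, 6 exceeded 20 RPKM in both libraries, with 1 gall-high and a median of 0.40. The most abundant members, named after their values were seen, differed less, the antenna protein lhcb1 (Locus 264) at 290.1 against 243 and a photosystem ii 10 kda polypeptide (Locus 127) at 131 against 90.2 RPKM, and photosystem i subunit xi (Locus 35934) was 1.20-fold higher in seed flowers. In the pollinated pair the list leaned the other way, 2 gall-high and 5 seed-high with a median of -0.48, and the difference between the pairs was not tested.

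Transcription factors of flower identity were found in both directions. Of 30 MADS-box and other floral regulators, 11 were gall-high and 5 seed-high (median log2 ratio 0.41). Over the 19 above 20 RPKM in both libraries the counts were 4 gall-high and 4 seed-high (median 0.21), and 9 had entered through gall flowers only. Apetala 1, a regulator of floral meristems and outer floral organs (Locus 17736), was at 394 RPKM in gall and 81.4 in seed flowers (4.84-fold, 95% interval 4.46 to 5.27), and a squamosa promoter-binding factor, of a family that promotes flowering (Locus 1990), at 201 against 27.8 RPKM. MADS-box protein agl15, expressed in embryos and other young tissues of *Arabidopsis* (Locus 34189), was at 25.3 RPKM in gall and 173 in seed flowers (6.82-fold, 95% interval 6.38 to 7.29), 1 of the 10 largest ratios toward seed flowers. Agamous-like protein Locus 1705 was at 37.5 against 149 and the MADS-box protein Locus 15638 at 74.4 against 198, both seed-high. Other transcripts described as agamous-like protein were gall-high, Locus 3630 at 48.5 against 7.14 and Locus 11961 at 38.3 against 10.4. These were named after their values were seen, and both were above 20 RPKM in gall flowers only. The MADS-box protein Locus 485 was gall-high at 142 against 64.6. After pollination agl15 was still 2.72-fold higher in seed flowers, 59.9 against 163.

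WRKY and NAC factors, often tied to stress and wall formation, were gall-high in 10 of 25 cases and seed-high in 0 (median log2 ratio 0.75, but 0.08 over the 12 above 20 RPKM in both, with 1 gall-high and 0 seed-high). Wrky transcription factor 44 (Locus 2593) was at 96.9 against 18.9 RPKM and the NAC proteins Locus 1594 and Locus 1505 at 95.3 against 35.7 and 58.4 against 15.6. MYB and bHLH factors had 4 gall-high and 9 seed-high of 44, with a median of 0.00, and under TMM 8 and 4. Over the 23 above 20 RPKM in both libraries, 0 were gall-high and 3 seed-high. Transcription repressor myb4 (Locus 2693) was at 36.7 against 5.39 and bhlh48-like (Locus 3009) at 28.5 against 76.6. Homeobox factors had 7 gall-high and 3 seed-high of 28. Over the 15 above 20 RPKM in both libraries, 1 was gall-high and 2 were seed-high (median -0.07), and 7 had entered through gall flowers only. Over all 28, the largest ratio toward gall flowers was that of the glabra 2-like Locus 812 given above (24.6-fold). Athb-6-like (Locus 977) was at 67.4 RPKM in gall and 2.88 in seed flowers (23.4-fold, 95% interval 18.6 to 29.9).

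Histones, the proteins that package new DNA, had the lowest median of the 42 functional lists. Of 16 histone transcripts, 10 were seed-high and 0 gall-high, and 15 were lower in gall flowers with intervals below 1. Levels ran from 23.2 to 264 RPKM in gall flowers (median 67.2) and from 29.7 to 993 in seed flowers (median 185), and all 16 exceeded 20 RPKM in both. Histone h2b (Locus 682) was at 264 RPKM in gall and 993 in seed flowers (3.77-fold, 95% interval 3.64 to 3.89), histone h4 (Locus 911) at 245 against 723 and histone h2a (Locus 16692) at 156 against 333.

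The median log2 ratio of the histones was -1.37, beside -0.03 for all transcripts. It was -1.09 under TMM, with 8 seed-high, and -1.03 with length removed, with 9 seed-high. The 8 histones of 500 to under 1000 bp had a median of -1.55 against -0.53 for all transcripts of that length, and the 7 of 1000 to under 2000 bp -1.09 against -0.29. In the pollinated pair none of the 16 was past 2-fold and the median was -0.21. For 13 of the 16, both pollinated levels lay between the receptive gall and the receptive seed level, as they did for 68.1% of all seed-high transcripts.

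Other genes of cell division were nearer to the background. Of 26 cell division transcripts, 4 were seed-high and 1 gall-high, which turned to 1 and 6 under TMM, with a median log2 ratio of -0.04, 0.24 under TMM and -0.38 with length removed. The cyclin-dependent kinases regulatory subunit (Locus 19032) was at 30.3 against 108 RPKM, the replication protein psf2 (Locus 28754) at 14.4 against 34.5 and replication factor c subunit 2 (Locus 4069) at 18.4 against 42.2, all seed-high, and a kinesin-like protein (Locus 6226) was gall-high at 27.2 against 12.5.

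Cytosolic ribosomal proteins gave more seed-high transcripts than any other of the lists. Of 97, 45 were seed-high and 3 gall-high, and 90 were lower in gall than in seed flowers. Their summed level was 10149 RPKM in gall and 18964 in seed flowers. Single differences were modest, from 2.01 to 5.35-fold among the seed-high ones. The most abundant of these were l23 (Locus 32500) at 494 against 1088, l27a (Locus 17921) at 238 against 679 and l13a (Locus 19867) at 193 against 505 RPKM. The exceptions were s4 (Locus 1528, 112 against 41.0), an l17-like protein (Locus 9342, 90.6 against 43.4) and an l3-like protein (Locus 15701, 43.9 against 14.2), all gall-high.

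The median log2 ratio of the ribosomal proteins was -0.93, -0.90 over the 89 above 20 RPKM in both libraries, and -0.65 under TMM, where 28 were seed-high beside 7.94% of all transcripts. With length removed it was -0.59, with 25 seed-high. Within length classes the ribosomal proteins were below all transcripts of the class: -0.86 against -0.53 for the 29 of 500 to under 1000 bp, -1.01 against -0.29 for the 61 of 1000 to under 2000 bp, and -0.87 against 0.23 for the 7 longer ones. In the pollinated pair the median was -0.34, with 0 of 97 seed-high. Translation factors were split, 6 seed-high and 7 gall-high of 45. Elongation factor 1-alpha, which brings aminoacyl-tRNA to the ribosome (Locus 257), was at 257 against 870.4, but elongation factor 1-gamma (Locus 26607) was at 121 against 45.5.

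Mitochondrial transcripts were more often seed-high than gall-high. Of 17 components of mitochondrial import, 6 were seed-high and 1 gall-high, with a median log2 ratio of -0.80 and -0.43 with length removed. Under TMM 3 were seed-high and 2 gall-high (median -0.52). Over the 10 above 20 RPKM in both libraries, 2 were seed-high and 0 gall-high (median -0.77). The outer membrane receptor tom22 (Locus 27763) was at 207 against 418 RPKM. Of 2 inner membrane translocase subunits, Locus 14905 was at 24.5 against 80.3. The other, Locus 42080, was at 19.8 against 76.5, so it entered through seed flowers only. The exception was mitochondrial-processing peptidase subunit alpha-like, which trims imported proteins (Locus 8126), at 67.2 RPKM in gall and 5.97 in seed flowers (11.3-fold, 95% interval 9.40 to 13.6). Of 41 respiratory transcripts, 10 were seed-high and 3 gall-high (median -0.38, -0.10 under TMM, where 7 were seed-high and 3 gall-high). Over the 34 above 20 RPKM in both libraries, 7 were seed-high and 1 gall-high (median -0.24). Among the seed-high ones were ATP synthase delta (Locus 20992, 40.7 against 143) and succinate dehydrogenase subunits 4 (Locus 32153, 31.8 against 100.2) and 5 (Locus 1691, 35.6 against 75.8). ATP synthase gamma (Locus 10500, 81.5 against 32.6) and 2 nadh dehydrogenase-like transcripts, among them Locus 6858 (25.4 against 8.10), were gall-high.

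The largest ratios toward seed flowers belonged largely to transcripts with no plant gene name. The first was a hypothetical protein described from the bacterium *Curvibacter* (Locus 23159), at 0.981 RPKM in gall and 142 in seed flowers (144-fold, 95% interval 119 to 177). A cell wall-associated hydrolase (Locus 19309) was at 4.30 RPKM in gall and 173 in seed flowers (40.3-fold, 95% interval 36.1 to 45.0), a hypothetical protein described from the protozoan *Toxoplasma gondii* (Locus 39410) at 2.82 against 40.5 and p150 (Locus 16193) at 2.45 against 32.6 RPKM. Locus 8420, described as streptomycin spectinomycin adenyltransferase, a bacterial resistance enzyme, took more reads than any other of these 10, 80591 in seed flowers, at 266 RPKM in gall and 2547 in seed flowers (9.56-fold, 95% interval 9.44 to 9.68). These names are the best protein matches in the table, and whether the RNA came from the fig, its organelles or other organisms was not tested. In the pollinated pair 4 of these 5 were below 6 RPKM in both flower types, with Locus 23159 at 0.221 against 0.935, and Locus 8420 was at 280.1 against 301 RPKM.

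Of the remaining 5, 4 were also past 2-fold toward seed flowers after pollination. A remorin family protein, of plasma membrane proteins (Locus 30004), was at 42.5 RPKM in gall and 289.8 in seed flowers (6.82-fold, 95% interval 6.48 to 7.19) and after pollination at 55.6 against 277. A bifunctional inhibitor of the lipid-transfer and seed storage type (Locus 9734) was at 7.88 against 53.4, a transcript described as 3-like protein (Locus 5095) at 8.96 against 64.7 and an unnamed protein (Locus 35528) at 6.25 against 47.0 RPKM. After pollination these were at 5.01 against 16.6, 21.1 against 58.8 and 11.3 against 19.0, the last under 2-fold, and agl15 is given above. Locus 46991, described as cytochrome p450 liketbp, was the most abundant seed-high transcript among the cytochrome P450 names, 564 against 2425 RPKM. It was counted there by its name alone, and whether it encodes such an enzyme was not tested.

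Of the 10 largest ratios toward gall flowers, those not yet named were other enzymes and 1 transcript of unclear name. A 3-hydroxyisobutyryl- hydrolase-like protein, by name of valine breakdown (Locus 16368), was at 421 RPKM in gall and 7.04 in seed flowers (59.8-fold, 95% interval 47.4 to 76.6). NADP-dependent malic enzyme, which turns malate into pyruvate (Locus 996), was at 169 RPKM in gall and 3.34 in seed flowers (50.7-fold, 95% interval 33.8 to 80.1). Glutaminyl-trna synthetase (Locus 9485) was at 33.7 against 0.781 RPKM and beta- soluble isoenzyme i-like (Locus 1948) at 26.6 against 0.676. The name of Locus 1948 is incomplete, so whether it belongs with the carbohydrate genes left out cannot be told. In the pollinated pair 9 of the 10 were 1.23 to 29.1-fold higher in gall flowers, the highest being the extensin-like Locus 10755, and germacrene D synthase Locus 20881 was level.

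Several groups stayed close to or under the background of 18.5% and 14.2%. Heat shock proteins and chaperones had 6 gall-high and 10 seed-high of 51 (7 and 2 under TMM). Heat shock protein 70 transcripts lay on both sides. Locus 8031 (105 against 247 RPKM, 2.35-fold) and Locus 16295 (2.17-fold) were seed-high, both under the 2.43-fold needed to remain so under TMM. Locus 21164, of the same name, was 4.37-fold higher in gall flowers, and the heat shock cognate protein 80-like Locus 22472 was 4.70-fold higher there. Calcium signalling had 14 gall-high and 8 seed-high of 64, but 3 and 7 over the 43 above 20 RPKM in both libraries. Cytoskeleton had 7 and 3 of 43, and 4 and 2 over the 32 above 20 RPKM in both. Alpha tubulin 1 (Locus 20996) was at 279 against 72.4 and actin (Locus 3032) at 507 against 235. F-box proteins and ubiquitin ligases had 25 and 14 of 182, but 2 and 5 over the 106 above 20 RPKM in both libraries. Proteasome subunits had 3 and 4 of 32 (6 and 2 under TMM), and 1 and 4 over the 29 above it in both. RNA processing had 13 and 16 of 127 (22 and 9 under TMM), and 2 and 6 over the 80 above it in both. Glutathione S-transferases and thioredoxins leaned to seed flowers, 5 seed-high and 1 gall-high of 35, with a median log2 ratio of -0.53, and -0.25 under TMM. Over the 27 above 20 RPKM in both libraries, 3 were seed-high and 0 gall-high (median -0.46).

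The small lists were mixed. Glycosyltransferases of small molecules had 4 gall-high and 3 seed-high of 14, transposable elements 3 and 2 of 10, late embryogenesis and dehydration proteins 3 and 1 of 9, and dormancy, senescence and storage proteins 4 and 1 of 12. A late embryogenesis abundant protein (Locus 37719) was among the higher seed-flower levels, 152 against 433 RPKM. Its level was far lower after pollination in both flower types, 34.0 and 50.3.

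**Figure D5:**
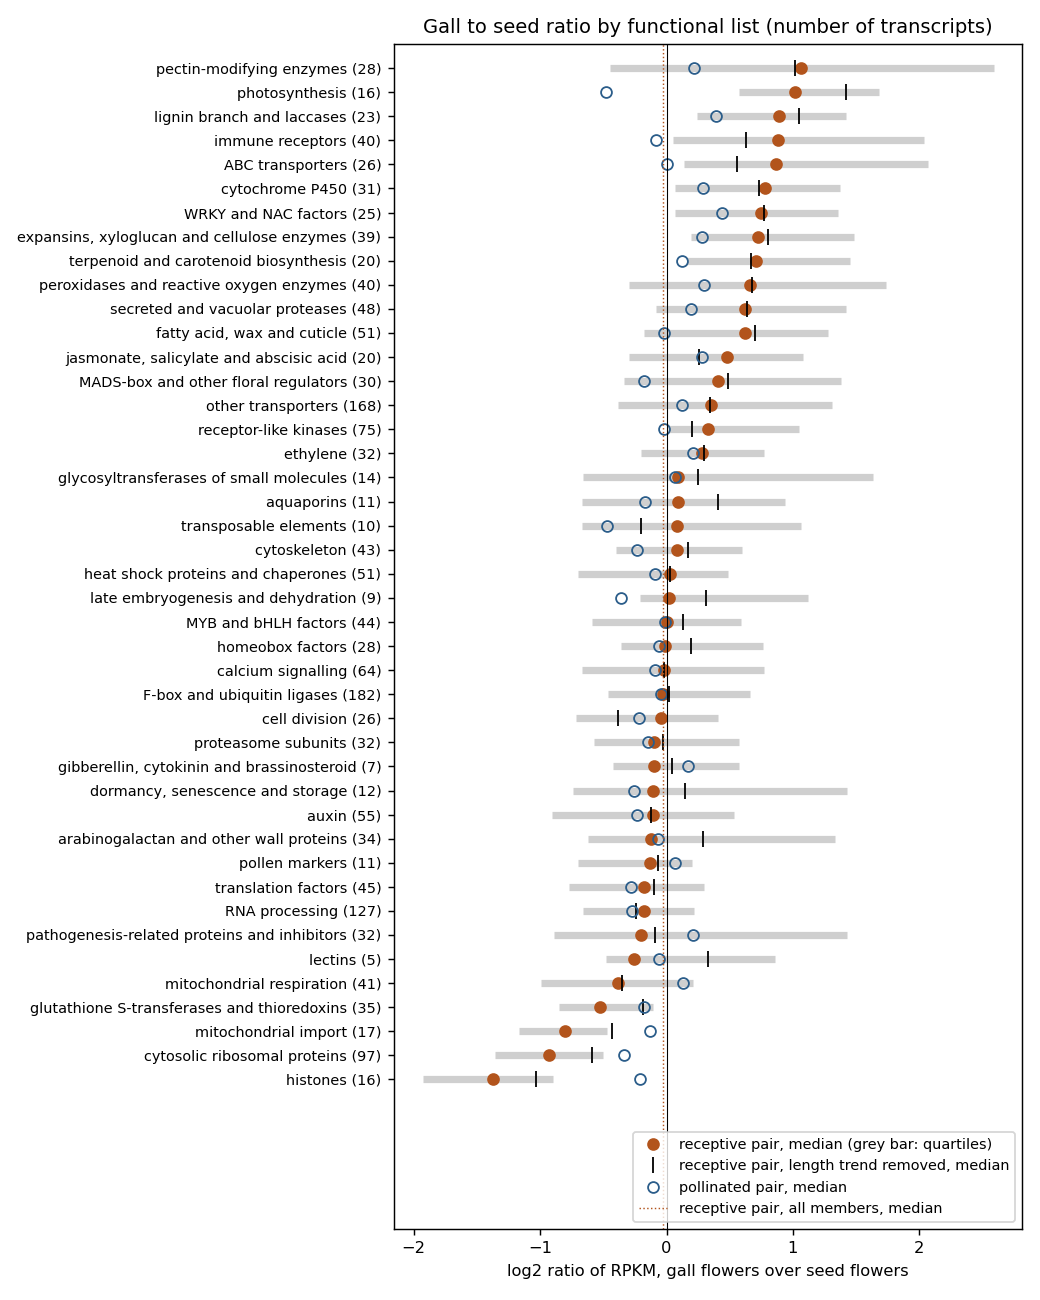
Median log2 ratio of RPKM, gall over seed flowers (horizontal axis), for each functional list with at least 5 transcripts (number in parentheses), apart from flavonoid and carbohydrate genes. Filled circles are the receptive pair with grey bars from the lower to the upper quartile over transcripts, black ticks the receptive pair after removal of the length trend, open circles the pollinated pair, and the dotted line the median of all 6798 transcripts. Pectin-modifying enzymes and photosynthesis lie at the gall end, histones and ribosomal proteins at the seed end, and pollinated medians are mostly nearer 0.

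Gene ontology terms, taken from the table for 178 terms with at least 20 transcripts, had ribosomal and nucleosome terms at the seed end and acyl transfer and wall terms at the gall end. The 8 lowest medians were those of ribosome (-0.97), cytosolic small ribosomal subunit (-0.95), nucleosome (-0.94), nucleosome assembly (-0.92), structural constituent of ribosome (-0.90), ribosome biogenesis (-0.86), translation (-0.86) and rRNA binding (-0.85). Of the 156 transcripts with the structural ribosome term, 67 were seed-high and 6 gall-high. The 8 highest were acyltransferase activity (1.61), hydrolysis of O-glycosyl compounds (1.11), carboxylesterase activity (1.09), cation binding (1.06), cellular cell wall organization (1.02), peroxidase activity (0.94), potassium ion transport (0.94) and monooxygenase activity (0.92). Of the 23 cell wall organization transcripts, 12 were gall-high and 0 seed-high. With length removed the medians were -0.72 for ribosome, -0.47 for ribosome biogenesis, 1.58 for acyltransferase activity and 0.92 for hydrolysis of O-glycosyl compounds. Medians over transcripts above 20 RPKM in both libraries are not given for the terms. Terms share transcripts with each other and with the lists, so these are not separate counts. Carbohydrate metabolic process (81 transcripts, median 0.61) was among the 178 terms, so genes set aside above can be counted in them.

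The pollinated libraries gave other flowers of the same tree and position, a day after a foundress had been introduced. There 401 of the 6798 transcripts (5.9%) were gall-high and 265 (3.9%) seed-high. Of the 1256 transcripts gall-high before pollination, 288 (22.9%) were gall-high and 9 seed-high after it, and 74.8% had a ratio above 1, against 40.1% of all transcripts. Of the 966 seed-high ones, 120 (12.4%) were seed-high and 5 gall-high, and 83.6% had a ratio below 1, against 59.9% of all. The direction thus recurred more often than over all transcripts, and most 2-fold differences did not recur at that size.

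Words for insects and pollen were looked for as signs of other organisms and tissues. None of the 6798 transcripts carried an insect genus in its description. Descriptions often name no organism, so this does not show that insect RNA was absent. Of 11 transcripts with pollen words, a tissue that female flowers lack, 1 was gall-high and 1 seed-high, with sums of 568 RPKM in gall and 706 in seed flowers. The first was a self-incompatibility locus-linked pollen protein (Locus 16091, 47.4 against 2.49 RPKM) and the second a calcium-binding pollen allergen (Locus 47072, 51.5 against 116). These words come from protein matches and do not show that pollen was present. Apetala 1, a defining floral regulator, was present in both libraries, as given above. No marker fixed for this comparison tells gall from seed flowers apart from their position.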

How the data were processed

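RNA of 4 flower libraries was sequenced on the Illumina platform as paired reads, and per the submitters' processing notes FastQC 0.10.0 and Trimmomatic 0.22 were used. The authors assembled the trimmed reads of all libraries into transcripts de novo with Oases, described the transcripts by protein matches and gene ontology terms, and mapped the reads back with CLC Genomics Workbench. The deposited read counts are the authors' mapped reads per transcript and library, all and uniquely mapped, and the deposited RPKM values are those counts divided by transcript length and mapped reads. Recomputing RPKM from the counts differed from the deposited values by at most 5.0e-04. Whether the members of a read pair were counted once or separately is not given in the sources used here. The e-values of the protein matches were used only for a filter, and 12 columns, 3 per library, that repeat other columns were not used.

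Groups came from the sample labels. The 2 receptive libraries were compared by the ratio of RPKM, with a transcript called gall-high or seed-high at a ratio of 2 or more. A 95% interval came from the exact conditional binomial distribution of the read counts and covers counting error only: the libraries carried no molecular identifiers, so that reads can be copies of 1 molecule. A count of 0 was set to a floor of 3 reads. The length trend was the running median of the log2 ratio over 401 transcripts ordered by length. With 1 library per group, the study's Z-test of Kal was kept as an alternative, since it compares libraries and not conditions. Functional lists were words in the descriptions. The transcripts, lists and tests were chosen with earlier results of these data known, and the words of some lists were adjusted, and mitochondrial import and proteasome subunits added, after the descriptions were seen. From each list at most 3 transcripts per direction were named, those with the highest mean RPKM among the ones past 2-fold, and all of a list of at most 6. The 10 largest ratios per direction with at least 10 reads in each library and 8 gene ontology terms at each end, among terms with at least 20 transcripts, were also named. Assembled loci can be copies, alleles or fragments of 1 gene that share reads, and strand was not used as far as stated, so single loci of a family are uncertain. Scripts used Python 3.11.15, numpy 2.4.6, pandas 2.3.3, scipy 1.17.1 and, for TMM and the exact test as alternatives, R 4.3.3 with edgeR 4.0.16, and were tested on simulated data.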

Additional observations from a re-analysis of the deposited data

Results flagged for a closer look

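Photosynthesis transcripts were on opposite sides in the receptive and pollinated pairs, with a median log2 ratio (gall over seed) of 1.02 over 16 transcripts before and -0.48 after pollination. Among the named transcripts, the myrcene synthase-like Locus 5434 was past 2-fold in opposite directions, with a log2 ratio of 1.31 in the receptive and -1.05 in the pollinated pair. The difference between the pairs was not tested in either case, because each group was 1 library.

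Outside the transcripts compared, 501 transcripts of any length carried an insect genus in their description. Before pollination they took 2828 reads in gall and 2709 in seed flowers, above the 3 reads that a count of 0 allows. The gall library was the deeper, so these were 0.00554% of its mapped reads against 0.0234% in seed flowers. Nearly all of these reads fell on 1 short transcript, 2804 in gall and 2707 in seed flowers. That transcript had 2908 and 2757 reads in the pollinated gall and seed libraries. The other 500 took 24 reads in gall and 2 in seed flowers before pollination, and 46936 and 31 after it.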

How the results depend on the processing

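No paired analysis was possible because each group was 1 library, and for the same reason no replicate could be left out. The main counts were 1256 gall-high and 966 seed-high transcripts. Seed-high transcripts fell in number to 540 under TMM scaling and 548 with equal RPKM sums, all of them among the 966. An RPKM above 5 in at least 1 library gave 2317 gall-high and 1584 seed-high, an RPKM above 20 in both libraries 378 and 487, and 1 transcript per description 801 and 576. A fold of 4 left 444 and 67. The Z-test of Kal called 1719 toward gall and 618 toward seed flowers, 524 of the latter among the 966, and edgeR's exact test, run with a coefficient of variation set to 0.4, called 274 toward gall and 5 toward seed flowers. The other alternatives, among them uniquely mapped reads, removal of the length trend and the other length limits, kept both counts within 1.5 times.

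Over 43 list medians and all settings, 69 of 600 values changed sign, in 24 lists. In 20 of these lists the first median lay within 0.28 of 0, the TMM shift. The other 4 were pectin-modifying enzymes (-0.09), peroxidases (-0.03), the jasmonate list (-0.12) and other transporters (-0.01), each where both libraries exceeded 20 RPKM, and peroxidases also with 1 transcript per description (-0.06). Medians of the photosynthesis, immune receptor and WRKY and NAC lists also moved toward 0 under that rule, which drops the transcripts that entered by 1 library. Of 226 named transcripts past 2-fold, 182 remained so under TMM and 175 with the length trend removed. The seed-flower library, with the fewest reads, limits the precision of large gall-high ratios.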
